A study of Hydra vulgaris with 22 samples.

Results

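The transcript contigs of the freshwater polyp Hydra vulgaris in these data carry identifiers made of a stem and a contig number, so that c12806_g1_i01 and c12806_g1_i02 belong to the stem c12806_g1. In 23 stems, the contig that held most of the counts was a different one in epithelial stem cells and in interstitial stem cells. Of 44306 stems, 8844 had 2 or more contigs, and 1990 of these reached a mean of 10 CPM (counts of the stem scaled by the library total) in all 6 sorted groups. The 23 stems were selected on these group means: they had one contig with at least 50% of the stem's counts in all epithelial group means and another contig with at least 50% in both interstitial group means. They were 1.16% of the 1990 stems, and 1385 stems (69.6%) kept the same contig at 50% or more in all 6 groups. The contig leading in epithelial cells is called the epithelial contig here, and the contig leading in interstitial cells the interstitial contig. The share of a contig is its percentage of the stem's counts in a library.

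Polyadenylated RNA of the strain AEP was sequenced with directional libraries from the central body column, without its apical and basal ends, of polyps fed 3 times a week. Cells carrying the reporter eGFP were sorted by flow cytometry. The actin::eGFP transgene marked epidermal epithelial stem cells (eESC) and gastrodermal epithelial stem cells (gESC), both sorted for high eGFP, after 3 days without food (eESC_3d, n = 3, and gESC_3d, n = 3) or 10 days (eESC_10d, n = 4, and gESC_10d, n = 3). The cnnos1::eGFP transgene marked interstitial stem cells, sorted in a high gate (ISC_high, n = 4, at 2, 3, 3 and 5 days for replicates A to D) and a medium gate (ISC_medium, n = 3, at 5, 3 and 3 days for replicates A to C). In addition, 1 body column of each transgene was sequenced without sorting, also at 10 days. The title of the actin::eGFP column holds the word ecto, as do the titles of the sorted epidermal libraries. For the cnnos1::eGFP one, the label gives gESC as the eGFP-expressing cells, which goes against its transgene, so only the transgene is used to name it. All interstitial libraries thus came from the cnnos1 line and all sorted epithelial libraries from actin::eGFP animals, so cell type and line cannot be told apart in the sorted libraries. The labels do not say whether epidermal and gastrodermal cells came from the same actin::eGFP line, nor whether replicates came from separate polyps, so p-values measure the spread between these libraries. Sorted libraries held 17159718 to 31723680 counts and the unsorted ones 15457132 (actin) and 13971099 (cnnos1).

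The body wall of Hydra consists of an epidermis and a gastrodermis, which are maintained by separate unipotent epithelial stem cells. Multipotent interstitial stem cells, scattered between the epithelial cells, give rise to nerve cells, stinging cells, gland cells and germ cells. In an assembled transcriptome, contigs that share a stem can be splice forms, alleles, near-identical gene copies or fragments of a transcript. Reads that match several contigs of a stem are divided among them by estimation in Salmon, the counting tool named in the submitters' processing notes, so the split between contigs is less certain than the stem's total. No identifier matched the reference table of 28925 genes (0 of 61501 contigs), so no gene name or role is given for any stem, and the markers of each cell type could not be checked.

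In the 23 stems, the mean interstitial-contig share was higher in the 2 interstitial groups than in the 4 epithelial groups by 5.46 to 88.2 percentage points, with a median of 52.4. This difference chose the stems and is a description. In 15 stems the shares of the 13 epithelial libraries and of the 7 interstitial libraries did not overlap, and among all 1990 stems the same held for 9.85%, a contrast the choice used. In 7 stems the leading contig had at least 50% in every library of its cell type. The stems had mean levels of 13.5 to 964 CPM over the 6 groups, with a median of 39.3 against 56.7 for the 1990 stems. Of the 23, 13 stems had 2 contigs, 6 had 3, 2 had 4, 1 had 5 and 1 had 6.

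**Figure D1:**
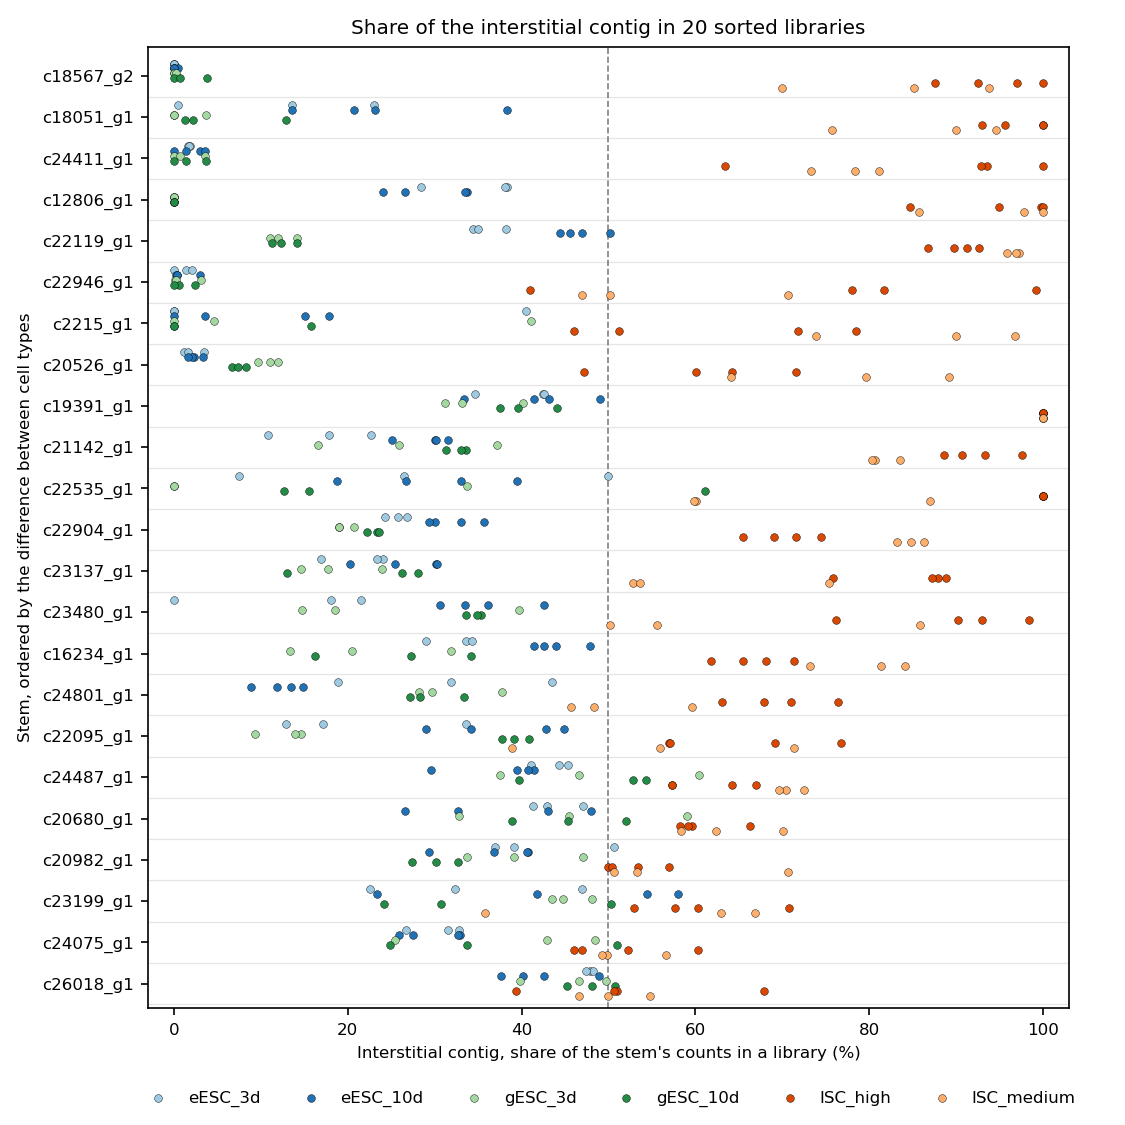
Share of the interstitial contig in each of the 20 sorted libraries (x axis, percent of the stem's counts in the library) for the 23 stems (y axis), ordered by the difference between cell types; each point is 1 library, coloured by group, and the dashed line marks 50%. Shares of epithelial (blue and green) and interstitial (orange) libraries are apart in 15 stems, and the stems at the bottom, such as c26018_g1, overlap.

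The widest separations left almost no counts of one contig in one cell type. The stem c18567_g2 has 4 contigs, and its interstitial contig c18567_g2_i04 held 97.1, 100, 92.5 and 87.5% in ISC_high A to D and 93.8, 70.0 and 85.2% in ISC_medium A to C. The same contig had 0 counts in 9 of 13 epithelial libraries, and its highest epithelial share was 3.85%, in gESC_10d B. A count of 0 in those libraries allows a share of up to 0.220 to 0.295%, depending on the library. The epithelial contig c18567_g2_i01 had 45.4 to 59.8% in the epithelial libraries and 0 counts in all 7 interstitial libraries.

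The stem c19391_g1 has 2 contigs, and all of its counts in the 7 interstitial libraries, 373 to 1577 per library, were on c19391_g1_i02. In the 13 epithelial libraries the same contig held 31.2 to 49.0%. These 2 stems were the only ones of the 23 whose epithelial contig had at most 3 counts in every interstitial library. In no stem did the interstitial contig stay at 3 counts or fewer in all epithelial libraries.

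The stem c22904_g1 had the highest smallest leading share, 67.9%, at a level of 226 CPM over the groups. Its interstitial contig c22904_g1_i02 held 24.3, 26.8 and 25.8% in eESC_3d A to C, 30.0, 33.0, 29.4 and 35.6% in eESC_10d A to D, 19.0, 19.0 and 20.7% in gESC_3d A to C and 23.3, 22.2 and 23.6% in gESC_10d A to C. It held 71.6, 69.1, 74.5 and 65.5% in ISC_high A to D and 86.3, 83.2 and 84.8% in ISC_medium A to C. Every interstitial library was thus above every epithelial one, by at least 65.5 against 35.6%.

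In 2 of the 6 stems with 3 contigs, c20526_g1 and c22946_g1, the remaining contig led in a library. In c20526_g1 the epithelial contig held 82.1 to 98.7% in epithelial libraries and 0 to 5.35% in interstitial ones. The interstitial contig c20526_g1_i03 held 47.2 to 89.2% there, and the remaining contig, c20526_g1_i01, held 8.21 to 47.4% and led in ISC_high B, by 47.4 against 47.2%. In c22946_g1 the interstitial contig held 0 to 3.10% in epithelial libraries and 99.2, 81.8, 41.0 and 78.0% in ISC_high A to D. In ISC_medium A to C it held 47.0, 70.6 and 50.1%, and the remaining contig c22946_g1_i02 held 52.7, 24.9 and 49.3%. The remaining contig also held 22.9 to 47.0% in the epithelial libraries. ISC_high C and ISC_medium A therefore did not have the interstitial contig at 50%, although both group means did.

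The narrowest member was c26018_g1, also the most abundant. Its interstitial contig held 37.6 to 50.7% in epithelial libraries and 39.3 to 67.9% in interstitial ones, with overlap. Its group means were 42.3 to 48.0% in the epithelial groups. Around the limit of 50%, the lowest leading shares inside it were 50.2% (c18051_g1) and 50.5% (c18567_g2), and the nearest stems outside it were c25906_g1 at 49.6% and c23599_g1 at 49.3%. Around the limit of 10 CPM, c24411_g1 and c23199_g1 were inside at 10.3 and 10.5 CPM, and c13206_g1 and c22709_g1 outside at 8.62 and 8.37 CPM.

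Stem totals differed strongly between the cell types in some of the 23 stems and by less than 2-fold in most. The mean of the interstitial groups was within 2-fold of the mean of the epithelial groups in 13 stems, at least 2-fold higher in 3 and at least 2-fold lower in 7; 35.1% of the 1990 stems were 2-fold or more apart (21.9% higher and 13.2% lower in the interstitial groups), and the choice of stems used these groups. In bulk libraries of sorted cells, a different mix of cells, including other cells carried over in a sort, and a different amount of RNA per cell cannot be told apart. The stem c23137_g1 had 1016 CPM over the epithelial groups and 13.3 CPM over the interstitial groups, 76.4-fold lower. The stem c26018_g1 had 1435 and 22.9 CPM, 62.6-fold lower, and c20526_g1 had 151 and 15.6 CPM, 9.66-fold lower. Of these, c26018_g1 hardly changed contig. Its mean interstitial-contig share was 45.9% over the epithelial and 51.3% over the interstitial groups, with overlap between libraries. Of the 3 stems higher in interstitial cells, c16234_g1 had 125 CPM in epithelial and 397 CPM in interstitial groups, 3.19-fold higher, c20680_g1 had 15.4 and 46.5 CPM, 3.03-fold higher, and c19391_g1 had 17.7 and 36.7 CPM, 2.08-fold higher. At the other end, c12806_g1 had 114 and 118 CPM while its interstitial contig went from 17.4 to 112 CPM and its epithelial contig from 96.5 to 6.39 CPM.

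**Figure D2:**
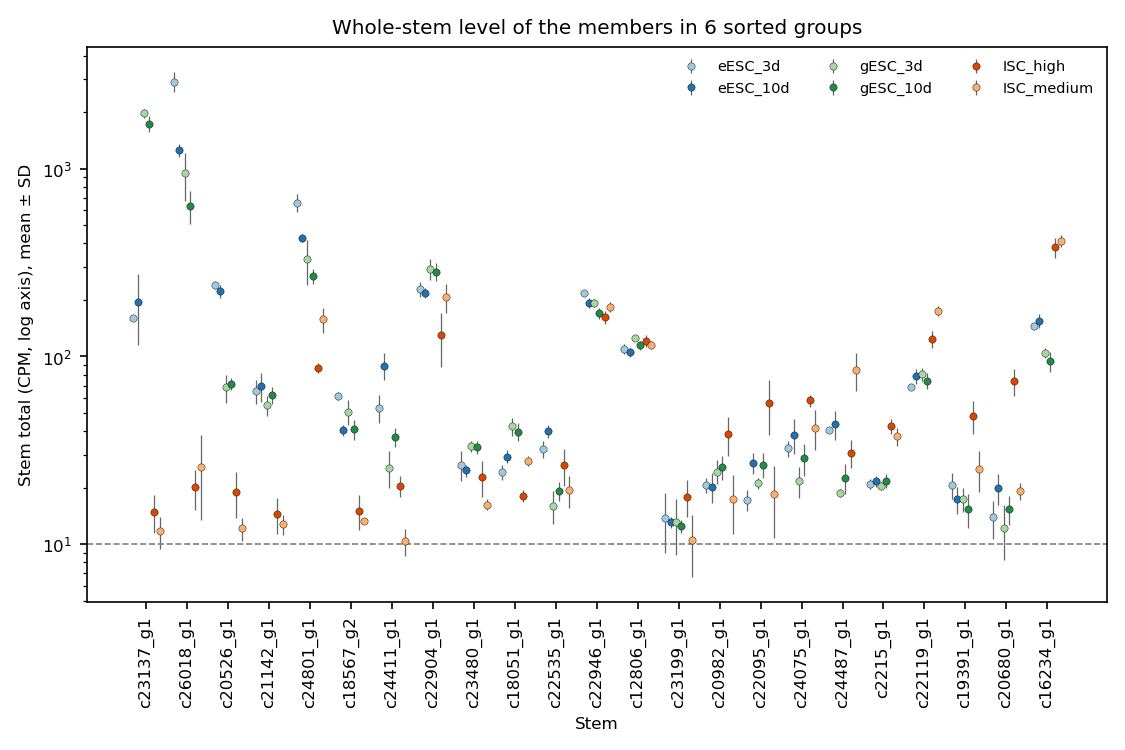
Total of each of the 23 stems (y axis, CPM, log axis; mean ± SD over the libraries of a group) in the 6 sorted groups (colours), ordered along the x axis by the ratio of interstitial to epithelial means; the dashed line marks 10 CPM. The stems c23137_g1 and c26018_g1 on the left are far higher in epithelial groups, 1016 and 1435 CPM, than in interstitial ones, 13.3 and 22.9 CPM, and c16234_g1 on the right is higher in interstitial groups.

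The 2 unsorted libraries, which the choice of stems did not use, differed from each other in several of these stems. They have no replicates, so no test was made; 95% Wilson intervals are given for single shares. In 7 of 23 stems, different contigs had 50% or more of the stem in the actin and the cnnos1 library. The same was true of 8.29% of the 1990 stems, and of 18.7% of the 605 stems without one contig at 50% or more in all 6 groups. In 5 of the 7 (c22535_g1, c12806_g1, c19391_g1, c22946_g1 and c24487_g1), the epithelial contig led in the actin library and the interstitial contig in the cnnos1 library. Some contig's share differed by 50 points or more in 5 stems, against 3.22% of the 1990.

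In c12806_g1 the interstitial contig held 38.1% of 2004 counts in the unsorted actin library (interval 36.0 to 40.3%) and all 1586 counts in the unsorted cnnos1 library (interval 99.8 to 100%). In c19391_g1 it held 34.1% of 387 counts (29.6 to 39.0%) in the actin library and all 279 counts (98.6 to 100%) in the cnnos1 library. In c22946_g1 it held 1.21% of 2148 counts (0.827 to 1.77%) and 99.8% of 1822 counts (99.5 to 99.9%). In these 3 stems the unsorted cnnos1 library had 0 counts of the epithelial contig, and the unsorted actin library had an interstitial-contig share within the range of the sorted epithelial libraries.

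The stem c18567_g2 followed the same pattern with one difference in the actin library. All 372 counts of the unsorted cnnos1 library were on the interstitial contig (99.0 to 100%). In the unsorted actin library 0 of 422 counts were, which allows a share of 0.711%, and c18567_g2_i01 and c18567_g2_i02 held 42.7 and 48.3%. In c22535_g1 the interstitial contig held 33.9% of 277 counts (28.6 to 39.7%) in the actin and 65.1% of 189 counts (58.0 to 71.5%) in the cnnos1 library, and in c24487_g1 30.6% of 447 counts (26.6 to 35.1%) and 66.4% of 327 counts (61.1 to 71.3%). In c23480_g1 the epithelial contig held 70.0% of 297 counts in the actin library and 0 of 255 in the cnnos1 library, where c23480_g1_i04 led with 45.5%.

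Of the 7 stems with totals at least 2-fold higher in the epithelial groups, 4 had similar totals in the 2 unsorted libraries (1 library of each line). The stem c23137_g1 had 744 CPM in the actin and 765 CPM in the cnnos1 library, c26018_g1 had 1134 and 1214 CPM, and c24801_g1 had 318 and 313 CPM. The stem c18567_g2, whose counts lay on different contigs in the 2 libraries, had 27.3 and 26.6 CPM. The other 3 were lower in the cnnos1 library, c20526_g1 with 87.0 and 59.2 CPM, c21142_g1 with 35.9 and 27.5 CPM and c24411_g1 with 19.2 and 12.7 CPM. The stem c12806_g1, with no such difference between cell types, had 130 and 114 CPM. In the unsorted cnnos1 library c23137_g1 and c26018_g1 were far above the 9.48 to 39.7 CPM of the sorted interstitial libraries. The same library had the interstitial contig alone in c12806_g1, c19391_g1 and c18567_g2. These values rest on 1 library, whose label goes against its transgene, and their cause was not tested.

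**Figure D3:**
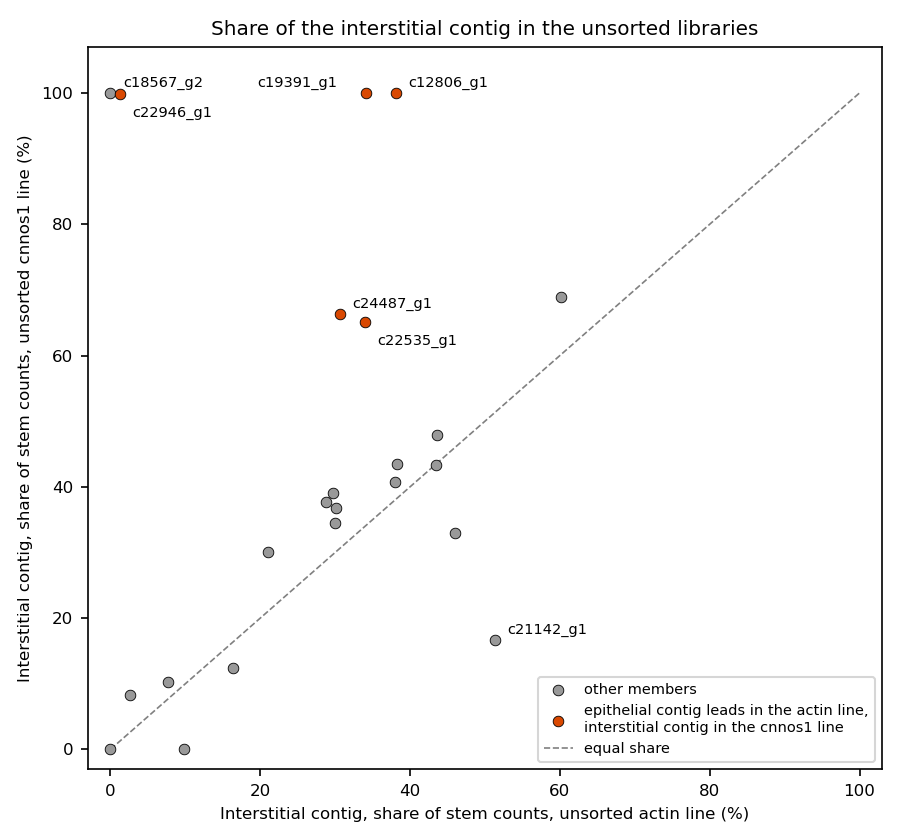
Share of the interstitial contig in the unsorted actin library (x axis, percent of the stem's counts) and in the unsorted cnnos1 library (y axis) for the 23 stems. Each point is 1 stem, and the dashed line marks equal shares. Orange points are the 5 stems with the epithelial contig leading in the actin library and the interstitial contig in the cnnos1 library. Of these, c12806_g1, c19391_g1 and c22946_g1 lie, like c18567_g2, at 99.8 to 100% on the y axis, while most other stems lie near the dashed line.

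Most other stems kept the epithelial contig in both unsorted libraries. The epithelial contig held 50% or more in 20 stems of the actin and 14 stems of the cnnos1 library, and the interstitial contig in 2 and 7. The median interstitial-contig share over the 23 stems was 30.1% in the actin and 39.0% in the cnnos1 library. The share was higher in the cnnos1 library in 17 stems, lower in 5 and equal in 1. In c2215_g1 the interstitial contig had 0 counts in both, of 270 and 201 counts of the stem, which allows a share of up to 1.49% in the shallower library, whereas in the sorted interstitial libraries it held 46.0 to 96.8%. In c21142_g1 the direction was opposite, with 51.4% (47.2 to 55.5%) in the actin and 16.7% (13.3 to 20.7%) in the cnnos1 library. In c22119_g1 the interstitial contig led in both, with 60.2% of 1087 counts (57.2 to 63.0%) and 68.9% of 1070 counts (66.0 to 71.6%), above the 11.0 to 50.2% of the sorted epithelial libraries and below the 86.7 to 97.3% of the interstitial ones.

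The comparison of the 2 epithelial layers asked whether the split between contigs also differed within the epithelial cells. The choice of stems did not compare the layers, but it held every epithelial group mean of the epithelial contig at 50% or more, which limits how far shares could differ. Contig usage (the split of a stem's counts over its contigs) was tested with edgeR's diffSpliceDGE and with limma's diffSplice, with p-values adjusted by Benjamini-Hochberg over 5929 stems and a threshold of 0.05. In data simulated for eESC_10d against eESC_3d, 29.0% of edgeR's usage calls were unchanged stems, against 9.60% with limma and 4.27% with both. The simulation drew the contigs of a stem independently, without the division of shared reads, and the other comparisons were not simulated. These rates may therefore differ in the real data. A share is therefore said to have risen or fallen only where both called it. The edgeR adjusted p-values given for usage may thus be too small. At 3 days edgeR called 4 of 23 stems between eESC and gESC, against 21.0% of the 5929 stems and 21.5% of the 1894 of them at 10 CPM or more in all groups. Both tools called the same 4, against 17.3% and 15.4%. At 10 days edgeR called 6, against 20.7% and 21.4%, and both called 5, against 19.1% in either set. The members' counts were thus near the background. Library totals were lower in eESC_3d than in gESC_3d (19422544 to 25455639 in the latter), and the part of depth in the 3-day calls was not tested.

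In c12806_g1 the layers differed at both times, with the interstitial contig at 0 counts in gastrodermal cells. It held 28.4, 38.3 and 38.0% in eESC_3d A to C and 26.6, 33.8, 33.5 and 24.0% in eESC_10d A to D. It was at 0 in all 6 gESC libraries, of 2472 to 3809 counts of the stem, which allows a share of 0.0788 to 0.121%. The shares were higher in epidermal cells at 3 days (34.9 ± 5.63% against 0%, SD, n = 3 and 3; edgeR adjusted p 1.1e-05) and at 10 days (29.5 ± 4.92% against 0%, n = 4 and 3; edgeR adjusted p 7.3e-06). The stem therefore had 3 states in the sorted libraries: the epithelial contig alone in gastrodermal cells, both contigs in epidermal cells, and 84.8 to 100% of the interstitial contig in interstitial cells. The unsorted actin library, not separated by layer, had 38.1% of the interstitial contig. As the labels do not say whether the layers came from the same line, layer and line cannot be told apart here.

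In c22119_g1 the interstitial contig held 34.4, 38.2 and 35.0% in eESC_3d A to C and 14.1, 11.0 and 11.9% in gESC_3d A to C. It held 46.9, 45.6, 44.4 and 50.2% in eESC_10d A to D and 12.4, 14.1 and 11.3% in gESC_10d A to C. Epidermal libraries lay above all gastrodermal ones at both times. The means were 35.9 ± 2.04 against 12.4 ± 1.59% at 3 days (edgeR adjusted p 0.00112) and 46.8 ± 2.50 against 12.6 ± 1.45% at 10 days (edgeR adjusted p 0.000225).

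The other 2 calls by both tools at 3 days were lost in several fits that left out 1 library. In c20526_g1 the interstitial-contig share was lower in eESC_3d than in gESC_3d, 2.04 ± 1.22 against 10.9 ± 1.13% (edgeR adjusted p 0.0213). This call was lost without eESC_3d A or B or gESC_3d B or C, with edgeR adjusted p up to 0.128. In c18051_g1, with 6 contigs, usage differed at 3 days (edgeR adjusted p 0.0229). The contig that differed most, c18051_g1_i01, held 8.53, 4.41 and 4.22% in eESC_3d A to C and 65.6, 3.18 and 20.2% in gESC_3d A to C, so that gESC_3d A stood apart and the groups overlapped. The interstitial contig held 0.438, 23.0 and 13.6% in eESC_3d A to C and 3.69, 0 and 0% in gESC_3d A to C. The call was lost without eESC_3d B or C or gESC_3d B or C, with edgeR adjusted p up to 0.146. It was also lost with the replicate letter as a block (edgeR adjusted p 0.0822) and with only the groups compared (0.162). With edgeR's Simes method in place of its F test, c20526_g1 and c18051_g1 also lost their calls (edgeR adjusted p 0.114 and 0.0981). At 3 days the count of calls was 2 without eESC_3d B or without gESC_3d B.

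At 10 days both tools called 3 further stems, and the calls of c24801_g1 and c24411_g1 were kept by edgeR whichever of the 7 libraries was left out. The interstitial-contig share was higher in eESC than in gESC in c16234_g1, 43.9 ± 2.82 against 25.9 ± 9.07% (edgeR adjusted p 0.0159, 0.171 without gESC_10d A and 0.394 with the Simes method). In c24801_g1 it was lower, 12.3 ± 2.53 against 29.6 ± 3.33% (edgeR adjusted p 0.000293). In c24411_g1 usage differed (edgeR adjusted p 0.00046) while the interstitial contig stayed at 0.0396 to 3.54% in eESC_10d and 0 to 3.67% in gESC_10d. The contigs that moved were c24411_g1_i03, with 66.6 ± 7.69% in eESC_10d and 97.8 ± 2.04% in gESC_10d, and c24411_g1_i01, with 17.7, 26.7, 16.8 and 36.0% in eESC_10d A to D and 0 counts in all gESC_10d libraries. The comparisons at the 2 times used separate libraries.

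**Figure D4:**
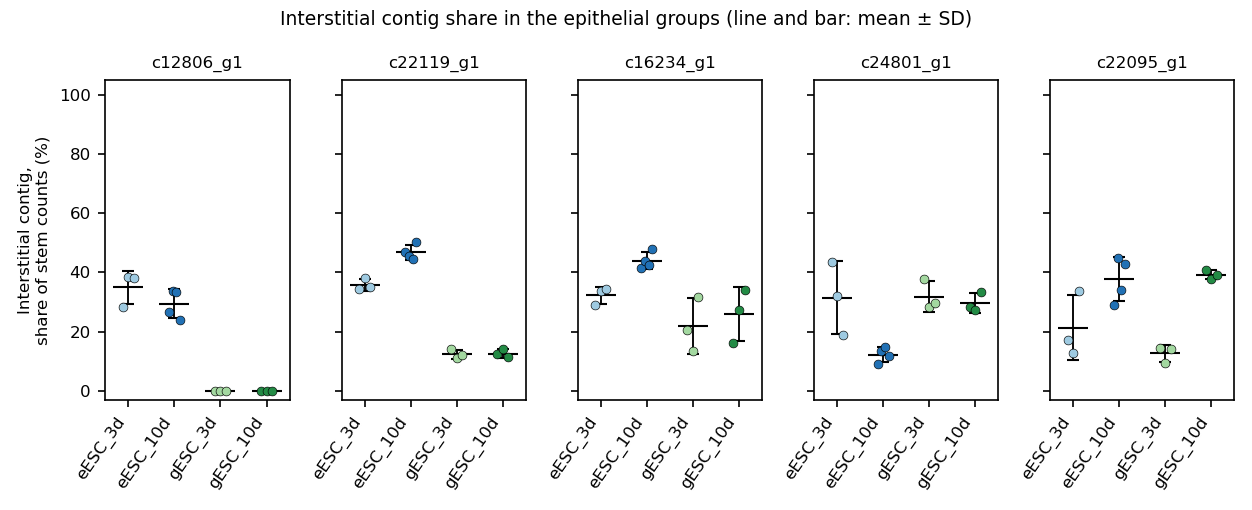
Share of the interstitial contig (y axis, percent of the stem's counts) in the 4 epithelial groups (x axis) for 5 stems called by both tools in a layer or food comparison; points are libraries, and the line and bar give mean ± SD. In c12806_g1 the gastrodermal libraries sit at 0 and the epidermal ones between 24.0 and 38.3%, and in c24801_g1 eESC_10d sits at 8.91 to 14.8%, below the other groups.

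Stem totals differed between layers in about as many of the 23 stems as elsewhere. The edgeR quasi-likelihood test on counts summed by stem, adjusted over 18288 stems, called 12 stems at 3 days (6 higher and 6 lower in eESC, or 6 and 3 with median-of-ratios factors in place of TMM), against 49.6% of all stems (24.7% higher and 24.9% lower) and 39.3% of the 1990. It called 11 at 10 days (7 higher and 4 lower), against 51.9% of all stems (28.0% higher and 24.0% lower) and 38.0% of the 1990. The median log2 fold change over the 23 was 0.01 at 3 days and -0.02 at 10 days, and over all stems 0 and 0.04. The stem c23137_g1 had 161, 153 and 167 CPM in eESC_3d A to C and 2024, 2053 and 1835 CPM in gESC_3d A to C. It was lower in epidermal cells by a log2 fold change of -3.81 ± 0.29 (SE, edgeR adjusted p 2.3e-09), and at 10 days by -3.30 ± 0.25 (edgeR adjusted p 2.4e-09), with 123 to 301 CPM in eESC_10d and 1626 to 1932 CPM in gESC_10d. Its interstitial-contig share in the same libraries was 17.0 to 30.2% in eESC and 13.0 to 28.0% in gESC, and its usage was not called. The stem c20526_g1 was the highest in the other direction, with 230 to 253 CPM in eESC_3d and 59.4 to 81.6 CPM in gESC_3d, a log2 fold change of 1.64 ± 0.19 (edgeR adjusted p 7.4e-07). At 10 days it had 206 to 245 CPM in eESC and 65.6 to 74.8 CPM in gESC, a log2 fold change of 1.48 ± 0.18 (edgeR adjusted p 1.4e-06).

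The 10-day and 3-day libraries of each layer were compared to ask whether contig use changed with time without food. Totals were 17159718 to 18473512 counts in eESC_3d and 25389419 to 30472270 in eESC_10d. They were 19422544 to 25455639 in gESC_3d and 29843317 to 31723680 in gESC_10d, so depth and time cannot be told apart in either layer. In eESC, edgeR called the usage of 1 stem, against 13.6% of all stems and 25.4% of the 1894 more abundant ones, and both tools called the same stem, against 11.5% and 21.5%. It was c24801_g1, whose interstitial contig held 43.5, 31.9 and 18.9% in eESC_3d A to C and 8.91, 13.5, 14.8 and 11.8% in eESC_10d A to D. The share fell from 31.4 ± 12.3 to 12.3 ± 2.53% (n = 3 and 4; edgeR adjusted p 0.000346), and the groups did not overlap, with eESC_3d C nearest to the 10-day libraries. The count was 2 without eESC_3d C and 4 when only the eESC libraries were fitted. The stem's total also fell, with 580 to 726 CPM in eESC_3d and 400 to 446 CPM in eESC_10d, a log2 fold change of -0.82 ± 0.19 (edgeR adjusted p 0.00956), a call lost without eESC_3d A at an edgeR adjusted p of 0.0638.

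In gESC, edgeR called the usage of 3 stems, against 3.90% of all stems and 7.71% of the 1894, and both tools called 1, against 2.36% and 4.54%. This was c22095_g1, whose interstitial contig held 14.6, 9.35 and 14.0% in gESC_3d A to C and 40.9, 37.7 and 39.1% in gESC_10d A to C. The share rose from 12.6 ± 2.88 to 39.2 ± 1.57% (n = 3 and 3; edgeR adjusted p 0.0147) while the stem's total was 19.8 to 22.5 CPM at 3 days and 22.6 to 30.7 CPM at 10 days. The call was lost without gESC_3d B or gESC_10d A, with edgeR adjusted p up to 0.0939, and with the Simes method (edgeR adjusted p 0.104). It was also lost when gESC_3d C, the 3-day library nearest in depth to gESC_10d, stood alone for 3 days, with an edgeR adjusted p of 0.337 and a difference of 25.3 points. The calls by edgeR alone were c20526_g1 and c18567_g2. In c20526_g1 the interstitial contig held 10.9 ± 1.13% at 3 days and 7.47 ± 0.79% at 10 days. The contig that differed most, c20526_g1_i01, held 0% in all gESC_3d libraries and 0, 11.2 and 1.39% in gESC_10d A to C. That call was lost without gESC_3d A or B or gESC_10d B, with edgeR adjusted p up to 0.198. In gESC the count was 0 without gESC_3d B and 1 without gESC_10d B.

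In the epidermal libraries c22095_g1 had 17.2, 12.9 and 33.7% in eESC_3d A to C and 29.0, 44.9, 34.2 and 42.8% in eESC_10d A to D, with overlap and no call. The test of the difference itself, between the layers' 10-day against 3-day changes of usage, called 0 of 23 stems with edgeR (3 at an unadjusted p under 0.05) and 0 with limma, against 2.14% of all stems and 3.22% of the 1894 with edgeR. Both tools together called 1.13% and 1.32% of these. A change in 1 layer was therefore not shown to differ from that in the other for any of the 23 stems.

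Whole-stem totals changed with time in 4 stems of eESC, 1 higher and 3 lower, against 12.3% of all stems (6.52% higher and 5.76% lower) and 19.4% of the 1990. The count was 1 without eESC_3d A. With median-of-ratios factors in place of TMM, the calls over all stems in this comparison were 919 higher and 1495 lower, against 1193 higher and 1053 lower with TMM. The stem c26018_g1 had 3150, 3076 and 2508 CPM in eESC_3d A to C and 1154, 1302, 1188 and 1367 CPM in eESC_10d A to D, and fell by 1.41 ± 0.30 on the log2 scale (edgeR adjusted p 0.00723). The stem c24411_g1 rose, with 43.2 to 60.8 CPM at 3 days and 69.7 to 101 CPM at 10 days, a log2 fold change of 0.57 ± 0.13 (edgeR adjusted p 0.00993). That call was lost without eESC_3d A or eESC_10d D, with edgeR adjusted p up to 0.0644. In gESC edgeR called 0 of 23 stem totals (8 at an unadjusted p under 0.05) and DESeq2 called 0, against 0.0656% of all stems with edgeR and 6.57% of the 8254 with an adjusted p in DESeq2. Without gESC_3d C edgeR called 2 of the 23, both lower at 10 days, against 5.22% of all stems in that fit. The difference between the layers was called in 0 of 23 stem totals by edgeR (0 at an unadjusted p under 0.05) and by DESeq2, against 0.0820% of all stems with edgeR and 0.731% with DESeq2.

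Between the 2 gates of the cnnos1 line, usage was called in the 23 stems about as often as in other stems of their abundance. The medium gate was compared with the high gate, and the gates differed in depth, with 18559123 to 20327106 counts in ISC_medium and 25195891 to 29383766 in ISC_high, so gate and depth cannot be told apart. EdgeR called 8 stems, against 19.7% of all stems and 35.7% of the 1894 more abundant ones. Both tools called 6, against 16.5 and 30.8%. The interstitial-contig share was higher in the medium gate in 3 of the 6 and lower in 3. With only the libraries at 3 days, edgeR called 4 stems.

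In c22535_g1 the interstitial contig held all counts in ISC_high A to D and 59.9 to 87.0% in the 3 ISC_medium libraries. The share was lower in the medium gate, 69.0 ± 15.6 against 100 ± 0% (n = 3 and 4, edgeR adjusted p 4.5e-06), and the gates did not overlap. In this stem the share also varied widely within epithelial groups, at 28.0 ± 21.3% in eESC_3d and 11.2 ± 19.5% in gESC_3d. At 10 days it was 29.5 ± 8.84% in eESC and 29.8 ± 27.2% in gESC. The highest epithelial library, at 61.1%, lay above the lowest interstitial one, at 59.9%. In c21142_g1 the interstitial contig held 90.7, 88.6, 93.3 and 97.6% in ISC_high A to D and 83.5, 80.7 and 80.3% in ISC_medium A to C. The share was again lower in the medium gate (edgeR adjusted p 0.00515, and 0.0960 with only the groups compared). In c24801_g1 the means were 51.2 ± 7.41% in the medium and 69.6 ± 5.58% in the high gate (edgeR adjusted p 0.0415), a call lost in 5 of the 7 fits that left out 1 library, those without ISC_high A, C or D or ISC_medium A or C, with edgeR adjusted p up to 0.151. It was also lost with the replicate letter as a block (edgeR adjusted p 0.0755), with median-of-ratios factors (0.0543), without the filter on low counts (0.0693) and with only the 3-day libraries (0.406).

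The share was higher in the medium gate in c22904_g1, c22119_g1 and c16234_g1. In c22904_g1 the means were 84.8 ± 1.58% in the medium and 70.1 ± 3.82% in the high gate (edgeR adjusted p 0.00217; 0.0557 with only the 3-day libraries). In c22119_g1 the interstitial contig held 97.3, 95.9 and 96.9% in ISC_medium A to C and 86.7, 92.6, 89.7 and 91.3% in ISC_high A to D (edgeR adjusted p 2.2e-05). In c16234_g1 it held 73.2, 84.1 and 81.4% in ISC_medium A to C and 61.8, 71.3, 65.4 and 68.1% in ISC_high A to D (edgeR adjusted p 0.0384). That call was lost without ISC_high A, C or D or ISC_medium B or C, with edgeR adjusted p up to 0.207, with only the 3-day libraries (edgeR adjusted p 0.0805) and without the filter on low counts (0.0936). The calls by edgeR alone were c23137_g1, with 60.6 ± 12.8% in the medium and 85.0 ± 6.15% in the high gate, and c18051_g1.

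**Figure D5:**
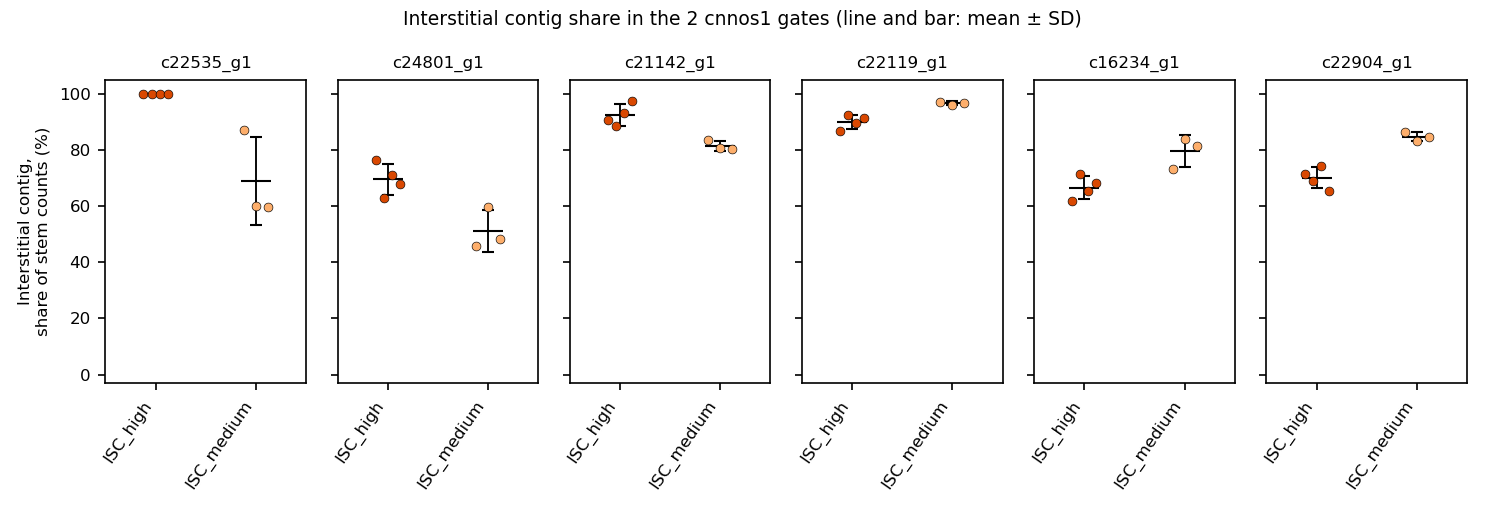
Share of the interstitial contig (y axis, percent of the stem's counts) in the high and medium eGFP gates (x axis) for the 6 stems called by both tools; points are libraries, and the line and bar give mean ± SD. In c22535_g1, c24801_g1 and c21142_g1 the medium gate lies below the high gate, and in c22119_g1, c16234_g1 and c22904_g1 above it, with no overlap between the gates.

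Stem totals were called in 11 of 23 stems between the gates, 7 higher and 4 lower in the medium gate, against 34.5% of all stems (15.1% higher and 19.4% lower) and 50.2% of the 1990. The split over all stems turned with the scaling, from 2755 higher and 3547 lower with TMM to 3153 and 2946 with median-of-ratios factors and 3042 and 2154 with only the groups compared. The members' split was 9 higher and 4 lower and 10 and 2 in these fits. The largest rise was c24487_g1, with 63.3, 101 and 90.7 CPM in ISC_medium A to C and 34.2, 26.3, 36.1 and 26.1 CPM in ISC_high A to D, a log2 fold change of 1.85 ± 0.17 (edgeR adjusted p 1.4e-07). The largest fall was c20680_g1, with 19.7, 20.9 and 17.0 CPM in ISC_medium and 89.4, 59.7, 74.9 and 71.4 CPM in ISC_high, a log2 fold change of -1.55 ± 0.19 (edgeR adjusted p 3.4e-06). Usage was called by both tools in neither stem. The interstitial contig of c24487_g1 held 69.6 to 72.5% in the medium and 57.3 to 67.0% in the high gate, and that of c20680_g1 held 58.3 to 70.1 and 58.2 to 66.3%.

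Both tools called usage in at least 1 of the 5 comparisons of layers, times and gates in 11 of the 23 stems, against 40.3% of all stems and 53.2% of the 1894. The choice limited the members' shares in each of these comparisons. The 12 stems without such a call include c19391_g1, with 31.2 to 49.0% in all epithelial and 100% in all interstitial libraries, and c26018_g1, c22946_g1 and c2215_g1. In c2215_g1 single libraries stood apart within their groups: the interstitial contig held 40.5, 0 and 0% in eESC_3d A to C and 41.1, 0 and 4.63% in gESC_3d A to C, at 19.4 to 21.9 CPM of the stem in all 6 libraries.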

How the data were processed

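The authors deposited whole-number counts for 61501 contigs in 22 libraries, made with cutadapt 1.11 and Salmon 0.7.2 per the submitters' processing notes; the transcriptome is not given in the sources used here. A second deposited table holds signal, in which each of 26024 contigs carries its count times a library-specific factor (largest relative deviation 7.7e-11); the notes name DESeq2, and the table served as an alternative. No column belonged to other samples.

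Shares and CPM were computed from the counts on column totals in Python 3.11.15. Contig usage was tested in R 4.3.3 with edgeR 4.0.16 (diffSpliceDGE) and limma 3.58.1 (voom, diffSplice), and stem totals with edgeR's quasi-likelihood test, with DESeq2 1.42.0 as an alternative. Each fit held the 20 sorted libraries with TMM scaling and a filter at a count of 10 (28522 contigs, 18288 stems), and calls were made at an adjusted p-value under 0.05 (Benjamini-Hochberg). The tests were tried on simulated data. The common biological coefficient of variation was 0.573 for contigs and 0.294 for stems. Within groups, Spearman correlations across contigs were 0.891 to 0.964 (24 pairs).

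Stems were named by rule: the 6 with the highest smallest leading share, the 6 most abundant, up to 2 called stems per usage contrast with the largest share difference, the highest and lowest called stem per stem contrast, 2 at each end in the unsorted libraries and 2 on each side of the 50% limit. The other stems called by both tools, other stems with unlike unsorted libraries and the stems of the closing section were chosen after their values were seen. The stems and the rules were chosen with earlier results of these data known. The floor of 3 counts and the 95% Wilson intervals cover counting error only: without molecular identifiers, reads are no independent molecules. Replicate letters were not used as pairs in the main fits. Alternatives were other scalings, filters, tests, limits of the choice and leaving out each library.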

Additional observations from a re-analysis of the deposited data

Results flagged for a closer look

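In 6 of 92 groups of 4 libraries, 1 value lay far from the other 3 (Dixon's test at the 95% level); chance gives about 1 in 20 groups. The interstitial-contig share of c23137_g1 was 75.8% in ISC_high B and 87.2 to 88.8% in the other ISC_high libraries. That of c20680_g1 was 66.3% in ISC_high C and 58.2 to 59.6% in the others. In eESC_10d the interstitial contig of c22946_g1 held 2.93% in replicate D against 0.194 to 0.387% in the others. That of c24487_g1 held 29.6% in replicate B against 39.5 to 41.4%, and that of c18567_g2 held 0.496% in replicate B, from 5 counts, against 0% in the others. The total of c20982_g1 was 14.8 CPM in eESC_10d A and 21.6 to 22.7 CPM in the others. What set these values apart was not tested.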

How the results depend on the processing

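The 23 stems depended on the limits of the choice: 8 remained at a leading share of 60%, 0 at 75% and 0 at 90%, and 7 when every library had to reach 50% (a limit added after seeing the data). At a minimum of 5 CPM there were 38 stems and at 20 CPM 9, and 24 with TMM-scaled sizes or the authors' table. Leaving out each library gave 20 to 26. Usage calls moved as follows. The 3-day layers gave 4 calls, 2 with the Simes method, 7 with limma and 2 to 6 with a library left out; the 10-day layers gave 6 and 5 to 7. Time in eESC gave 1 call, 4 with only the groups compared, 3 with limma and 1 to 2 with a library left out. Time in gESC gave 3 calls, 1 with only the groups compared, 1 with both tests, 0 with gESC_3d C alone at 3 days and 0 to 4 with a library left out. The gates gave 8 calls, 4 with Simes, 4 with only the 3-day libraries and 6 to 9 with a library left out. The test of the difference between layers gave 0 calls and 0 to 1. Stem calls with a library left out were 8 to 13 for the 3-day layers, 8 to 11 for the 10-day layers, 1 to 4 for time in eESC, 0 to 2 for time in gESC and 11 to 12 for the gates. The causes of these changes were not tested, except that a left-out library leaves fewer samples.

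With the replicate letter as a block, usage calls were 3 and 5 for the layers at 3 and 10 days, 1 for time in eESC, 1 in place of 3 for time in gESC and 7 for the gates, and stem calls were 12, 10, 5, 0 and 13. Over 15 pairs the correlations of same-lettered deviations were -0.145 to 0.227, with 4 above 0.1, so the letters showed no clear pairing. In the gates, letter A stood for 2 days in ISC_high and 5 days in ISC_medium, so that the block joined unlike libraries. Pairings across letters were not examined.

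Of 60 single calls (usage of a stem or its total), 641 recomputed values kept direction and call, 123 lost the call and 2 turned: the largest share difference of c18567_g2 in gESC between 10 and 3 days, called by edgeR alone, was -1.47 points and ran from -5.11 to 0.42 with a library left out, 0.42 without gESC_10d B and 0.27 without gESC_10d C. Median unsorted shares of the interstitial contig among the 2 leading contigs were 30.1 and 41.1%. The lowest stem count in a library was 118, which limits the shares of the least abundant stems.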
